A study of Mus musculus with 10 samples.

Results

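The interval described here is the T-cell receptor beta and trypsinogen locus of mouse chromosome 6, measured by array-based comparative genomic hybridisation. Its members are the 69 probes that start between 40.8 and 41.6 Mb on chromosome 6 in build mm9, of 170305 probes on the array and 161460 on the autosomes. The interval was selected on these same measurements, because its probes separated the 2 groups of animals. The levels of the groups are therefore a description of the locus, and no test of the group difference supports them.

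Liver DNA of 10 mice was hybridised, 1 animal per array, in the red dye (Cy5). Each array also carried, in the green dye (Cy3), a pool of equal amounts of DNA from adult mice of the C57BL/6, SJL and DBA strains. The 5 ICSI-derived animals were ZFLacZ progeny made from testis cells that had been frozen for 14 years, by intracytoplasmic sperm injection (ICSI), the placing of a sperm directly inside an oocyte. Their fathers' germ cells were of the ZFLacZ transgenic line, which was first made on an SJL x C57BL/6 background, and their oocytes came from DBA x C57BL/6 females. The 5 naturally born animals were wild-type ZFLacZ progeny, and the labels give no cross for them. The growth note of all 10 samples, theirs included, speaks of frozen germ cells, so their group was taken from the source and description labels. The crosses thus bring DBA genomes into the ICSI-derived group, and the way an animal came about and its strain background cannot be told apart. Replicates 1 to 3 of each group were labelled male and replicates 4 and 5 female. Values are log2 ratios of animal over pool, centred on each array's autosomal median, so that 0 is the level of a typical autosomal probe and a positive value is more DNA in the animal than in the pool.

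The locus encodes the beta chain of the T-cell receptor (Tcrb), the clonal antigen receptor of most T cells. Its variable (V), diversity (D) and joining (J) segments are cut and joined during T-cell development in the thymus, and each T cell keeps a single productive combination. Liver tissue consists mainly of cells that do not rearrange these segments, so its DNA carries the locus largely in the germline form. Between the V segments and the D, J and constant regions lies a cluster of trypsinogen genes, including Prss1, Prss2, Try4 and Try5, which encode precursors of the digestive protease trypsin and are expressed mainly in the acinar cells of the pancreas. Inbred mouse strains are known to differ in their V segments, and SJL is among the strains that lack a block of them. Whether that deletion lies behind the levels given here was not tested, since no strain was hybridised alone.

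The genes of the locus were ordered from the RefSeq annotation of GRCm38.p6, which is another build than that of the probes and was used for names and neighbours only. It lists 35 V segments from Trbv1 to Trbv31, of which 22 are not labelled pseudogenes and 13 are. Trbv1 stands apart from the others, with 5 protein-coding genes between it and Trbv2, among them Prss58, a trypsin-related protease. The next 33 V segments run from Trbv2 to Trbv30. Then follow 8 protein-coding genes of the trypsinogen cluster, Try4, Try5, Try10, Prss3, Gm5771, Gm10334, Prss1 and Prss2, with 3 pseudogenes between Trbv30 and the first D segment Trbd1. The D, J and constant parts comprise 2 D segments, 14 J segments and 2 constant regions, and Trbv31 closes the locus. The deposited files pair no probe with a gene, so which of these genes each probe lies in is not determined here.

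Some genes of the trypsinogen cluster have promoters that are much alike, although they are not next to each other. RefSeq promoter sequences, which span the start of each gene, were matched for 6 of the 8 trypsinogen genes, all but Try5 and Try10. The promoters of Prss1 and Gm5771 were identical at 273 of 320 aligned positions (85.3%), and those of Gm10334 and Prss3 at 86.4%. The promoter of Prss1 was less close to that of Try4, at 73.1%, and to that of Prss2, at 54.9%. Prss1 (chr6:41458680-41458979, plus strand, GRCm38.p6) and Gm5771 (chr6:41392106-41392405, plus strand, GRCm38.p6) are printed 5' to 3' because they hold the longest run of identical bases among the 6 promoters. Capitals mark that shared run of 127 bases, which begins at base 54 of the Prss1 sequence and at base 74 of the Gm5771 sequence.
Prss1: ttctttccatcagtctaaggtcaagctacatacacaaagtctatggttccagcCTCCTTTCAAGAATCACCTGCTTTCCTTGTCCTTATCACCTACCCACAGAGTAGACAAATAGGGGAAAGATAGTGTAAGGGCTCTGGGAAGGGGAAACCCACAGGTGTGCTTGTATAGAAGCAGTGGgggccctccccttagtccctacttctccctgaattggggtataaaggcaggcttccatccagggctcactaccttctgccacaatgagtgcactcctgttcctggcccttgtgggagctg
Gm5771: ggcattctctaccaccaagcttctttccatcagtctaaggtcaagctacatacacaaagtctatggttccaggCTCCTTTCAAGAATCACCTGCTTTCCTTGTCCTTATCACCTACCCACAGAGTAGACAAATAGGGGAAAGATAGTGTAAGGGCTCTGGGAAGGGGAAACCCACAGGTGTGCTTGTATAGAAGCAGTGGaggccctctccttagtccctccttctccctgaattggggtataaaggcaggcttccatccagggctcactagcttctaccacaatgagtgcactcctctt
The run is longer than a typical probe of the interval, whose median length was 60 bases, so the 2 promoters could not be told apart by a probe of that length inside it. The longest run shared by Gm10334 and Prss3 was 88 bases, that shared by Prss1 and Try4 was 31, and that shared by Prss1 and Prss2 was 11. Whether any member lies in a repeated stretch of the cluster was not tested.

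All 69 members were well above background in both channels on all 10 arrays, and none carried an outlier flag. Over all probes, 173864 to 174090 of 174305 spots per array were well above background. The number of arrays is among the limits on precision, and the noise SD estimated from neighbouring members was 0.20. What limits precision most was not tested. Neighbouring members started a median of 10.2 kb apart, with spacings between 1.18 and 44.5 kb. On 1 array, labelled as a male and as naturally born replicate 3, chromosomes X and Y lay between the values of the sexes (-0.03 and -0.01), and results that turn on it are given with and without it. Naturally born replicate 5 stood apart over the whole of chromosome 6 outside the interval, at 0.0695 against -0.0035 to 0.0107 in the other 9 animals. The 3 slides held 4, 4 and 2 arrays with both groups equally on each, and all arrays were scanned on 1 day.

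The difference between the groups was not spread over the locus but sat in 2 separate stretches. A joint segmentation of the 10 profiles divided the 69 members into runs of 17, 10 and 42 members, and the run of 10 is called the first stretch. With a lower penalty for each break, a stretch of 6 members further along was separated as well, which gave 5 runs, and it is called the second stretch. With a higher penalty the interval stayed in 1 piece. The first stretch covered at least 94.4 kb, from 41018389 to 41112757, and at most 113 kb given the neighbouring members. The second stretch covered at least 106 kb, from 41306470 to 41412425, and at most 123 kb, and 194 kb separated the stretches.

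**Figure D1:**
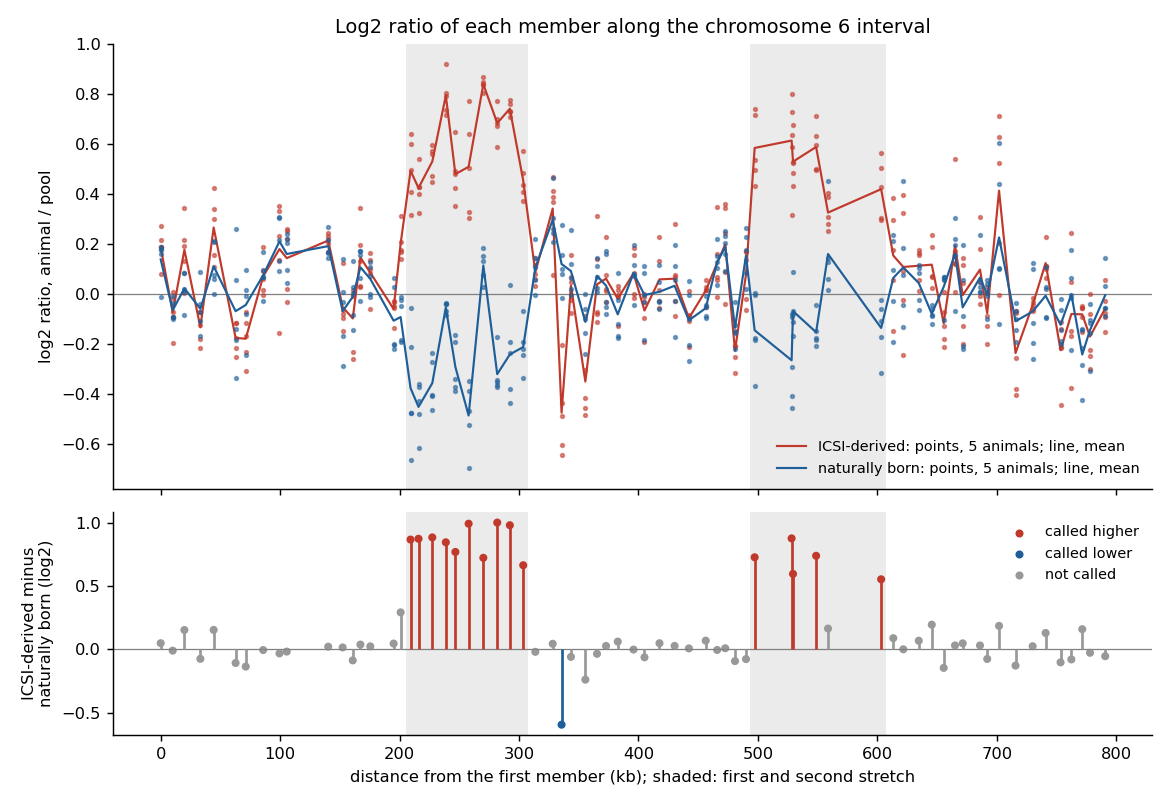
Log2 ratio of animal over pool for each of the 69 members (upper panel: points, the 5 animals of each group; lines, group means) and the difference of the group means (lower panel), against distance in kb from the first member. The groups part in the 2 shaded stretches of 10 and 6 members and lie together elsewhere, apart from a few single members such as the 1 called lower.

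In the first stretch the ICSI-derived animals all lay above 0 and the naturally born animals all below it. The ICSI-derived animals had mean log2 ratios of 0.57, 0.61, 0.62, 0.58 and 0.61 (replicates 1 to 5). The naturally born animals had -0.26, -0.25, -0.28, -0.37 and -0.18. The groups did not overlap, and a gap of 0.75 separated the lowest ICSI-derived animal from the highest naturally born animal. The group means were 0.60 ± 0.02 and -0.27 ± 0.07 (SD, n = 5 each), a difference of 0.86. The ICSI-derived animals lay close together, within 0.05 of each other, whereas the naturally born animals spanned 0.19. A wider span of the naturally born animals was not particular to this stretch. Over chromosome 6 outside the interval they spanned 0.07, against 0.01 in the ICSI-derived animals, and they also spanned more in every other run of the interval.

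The separation held at each of the 10 members of the first stretch, not only in their mean. Differences of the group means ranged from 0.67 to 1.00 over the 10 members, and the groups overlapped at none of them. In each ICSI-derived animal all 10 members were above 0. In naturally born replicates 1 to 4 only 1 member was above 0, and in replicate 5 there were 2. The member at 41079318 to 41079377 had the highest level of the stretch in both groups, 0.84 ± 0.02 and 0.12 ± 0.06 (SD, n = 5 each). The level differed between members more than the group difference did: over the 10 members the SD was 0.15 for the ICSI-derived mean and 0.18 for the naturally born mean, against 0.11 for the difference.

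The member with the greatest difference of the interval, at 41090950 to 41091007, gave 0.59, 0.70, 0.67, 0.69 and 0.77 in the ICSI-derived animals. In the naturally born animals it gave -0.35, -0.37, -0.36, -0.34 and -0.17. Only naturally born replicate 5 left the narrow range of its group. The group means were 0.68 ± 0.07 and -0.32 ± 0.08 (SD, n = 5 each), a difference of 1.00 ± 0.05 (SE of the fitted difference). At 41101504 to 41101563 the means were 0.74 ± 0.03 and -0.24 ± 0.18, and naturally born replicate 5 reached 0.04 while the others were between -0.44 and -0.19. The wide spread of the naturally born animals at this member came chiefly from that replicate. The member at 41066997 to 41067056 had the lowest naturally born level of the stretch, -0.48 ± 0.14, against 0.51 ± 0.20 in ICSI-derived animals. The member at 41036581 to 41036640 read 0.53 ± 0.07 and -0.36 ± 0.10.

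The second stretch had the same direction with a smaller difference. The ICSI-derived animals had means of 0.46, 0.49, 0.51, 0.60 and 0.50 over its 6 members, and the naturally born animals -0.11, -0.19, -0.14, -0.04 and -0.01. The groups again did not overlap, with a gap of 0.47. The ICSI-derived level was near that of the first stretch, while the naturally born level lay only a little under 0: the means were 0.51 ± 0.05 and -0.10 ± 0.07 (SD, n = 5 each), a difference of 0.61. The difference in the first stretch was 1.41 times as large.

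Within the second stretch 5 of the 6 members separated the groups. The member with the greatest difference there, at 41337408 to 41337467, gave 0.73, 0.32, 0.59, 0.80 and 0.64 in the ICSI-derived animals. In the naturally born animals it gave -0.08, -0.41, -0.29, -0.46 and -0.09. Its group means were 0.62 ± 0.18 and -0.26 ± 0.17 (SD, n = 5 each), a difference of 0.88. The exception, named after its values were seen, was the member that starts at 41367908. There the ICSI-derived animals gave 0.25, 0.40, 0.28, 0.39 and 0.31, and the naturally born animals 0.06, 0.13, 0.02, 0.45 and 0.15. The groups overlapped at this member because naturally born replicate 4 lay above all ICSI-derived animals, and the difference was 0.17. Without it, an alternative added after seeing the data, the stretch read 0.55 ± 0.06 and -0.15 ± 0.08, a difference of 0.70. The second stretch was also more thinly covered, since the widest gap between members of the interval, 44.5 kb, lies inside it.

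**Figure D2:**
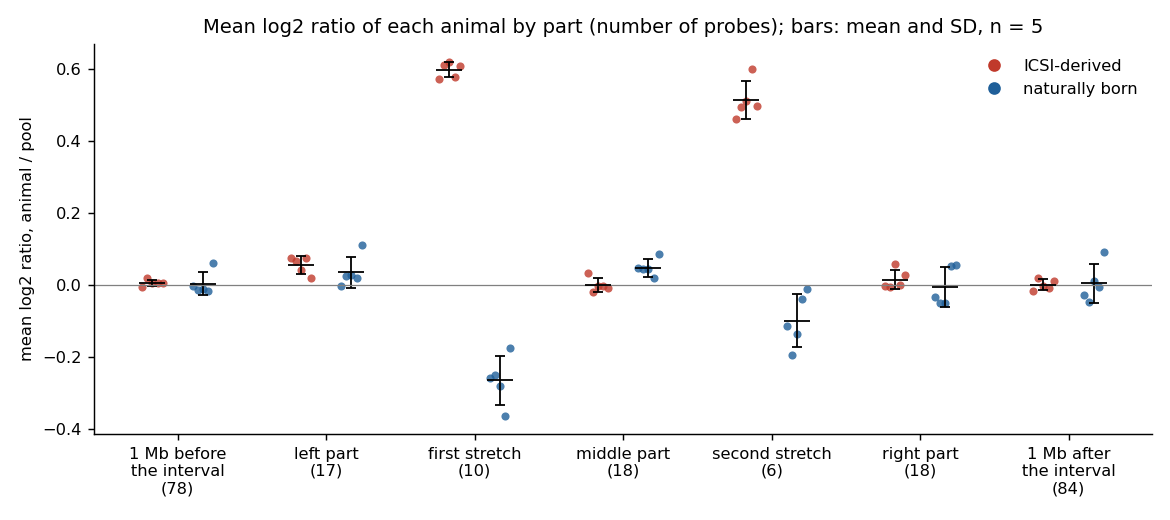
Mean log2 ratio of animal over pool for each animal (points) in the 1 Mb on either side of the interval and in its 5 runs of members, with the number of probes in brackets; bars are group means and SD (n = 5). The groups are apart in the first stretch (0.60 and -0.27) and the second stretch (0.51 and -0.10), and close to each other and to 0 in the other runs.

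Between and around the stretches the groups lay together. The 17 members of the left part, before the first stretch, averaged 0.05 ± 0.02 for the ICSI-derived group and 0.03 ± 0.04 for the naturally born group (SD, n = 5 each). The 18 members of the middle part, between the stretches, averaged -0.00 ± 0.02 and 0.05 ± 0.02, and the 18 of the right part 0.01 ± 0.03 and -0.01 ± 0.05. In each of these runs the animals of the groups overlapped. Of the 53 members outside both stretches, 50 had a group difference under 0.2 in size, and their median difference was 0.0086, against -0.00038 over all autosomal probes. In the 1 Mb before the interval, with 78 probes, and the 1 Mb after it, with 84, the groups differed by 0.0029 and -0.0030. Over the whole interval, which mixes the stretches with the rest, the means were 0.15 ± 0.01 and -0.03 ± 0.04, a difference of 0.18.

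A member of the middle part ran the other way. At 41144824 to 41144883 the ICSI-derived animals gave -0.64, -0.60, -0.43, -0.49 and -0.20, and the naturally born animals 0.10, -0.01, 0.16, 0.28 and 0.08. The groups did not overlap, and the means were -0.47 ± 0.17 and 0.12 ± 0.11 (SD, n = 5 each), a difference of -0.59. It was alone in this, since no other member of the middle part separated the groups in either direction. The next lowest differences of the interval were at 41164726, with -0.35 ± 0.16 and -0.11 ± 0.09, and at 41464736, with -0.12 ± 0.09 and 0.03 ± 0.07, and at both the groups overlapped. Neighbours on either side of 41144824 did not share its difference.

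The member just before the first stretch stood between its neighbours. At 41010073 to 41010132 the ICSI-derived animals gave 0.17, 0.18, 0.14, 0.21 and 0.31, and the naturally born animals -0.01, -0.02, -0.18, -0.19 and -0.04. The groups did not overlap and differed by 0.29, less than at any member of the first stretch. At the limits of the interval, the first member (40809195) read 0.19 for the ICSI-derived group and 0.14 for the naturally born group and the last member (41599970) read -0.06 and -0.00. The nearest probe outside on the left, at 40772439 to 40772498, read 0.21 ± 0.09 and -0.26 ± 0.13 (SD, n = 5 each) without overlap of the groups, and the nearest on the right, at 41606569, read -0.02 in both. The left limit thus leaves out a single probe at which the groups were apart, next to a first member at which they overlapped.

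Counts of members from a limma fit over all autosomal probes (group and sex in the model, Benjamini-Hochberg adjusted p under 0.05) are given beside the share of all 161460 probes, and nothing is read from them, since this contrast chose the interval. At that threshold 15 of the 69 members were called higher in ICSI-derived animals, where 25 of all probes (0.0155%) were, and 1 was called lower, where 7 (0.00434%) were. The 15 comprised all 10 members of the first stretch and 5 of the 6 of the second stretch. All ICSI-derived animals lay above all naturally born animals at 17 members, against 0.264% of all probes, and below them at 1 member, against 0.246%. Outside the stretches the members with all ICSI-derived animals above were 41010073 and, in the right part, 41454748, where the lowest ICSI-derived animal read 0.03 and the highest naturally born animal -0.04. A group difference of at least 0.5 in size was found at 16 members, against 0.201% of all probes. The limma adjusted p was 7.28e-06 at 41090950, 0.000371 at 41101504, 0.00197 at 41066997 and 0.00644 at 41337408. It was 0.0144 at 41144824, the member called lower, and 0.518 at 41010073. The member at 41144824 was no longer called when ICSI-derived replicate 1, 2 or 4 or naturally born replicate 1, 3 or 4 was left out, or with normexp background correction or the replicate number as a block.

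The ratio has 2 sides, and the separation lay in the animals' channel. In the first stretch the Cy5 signal of the animals, on the log2 scale relative to the array's autosomal median, was 0.30 ± 0.02 for the ICSI-derived group and -0.57 ± 0.08 for the naturally born group (SD, n = 5 each). The Cy3 signal of the pool was -0.30 ± 0.01 on the arrays of the first group and -0.31 ± 0.03 on those of the second. In the second stretch the Cy5 means were -0.40 ± 0.04 and -1.04 ± 0.07, and the Cy3 means -0.91 ± 0.04 and -0.94 ± 0.05. The group differences in Cy5, 0.87 and 0.64, were thus near those of the ratios, while those in Cy3 were 0.01 and 0.03. The pool signal ranked lower along the locus: the median member stood at percentile 52.3 of autosomal probes in the left part, 44.2 in the first stretch, 29.6 in the middle part, 18.2 in the second stretch and 14.7 in the right part. The part of signal level in the group difference was not tested.

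**Figure D3:**
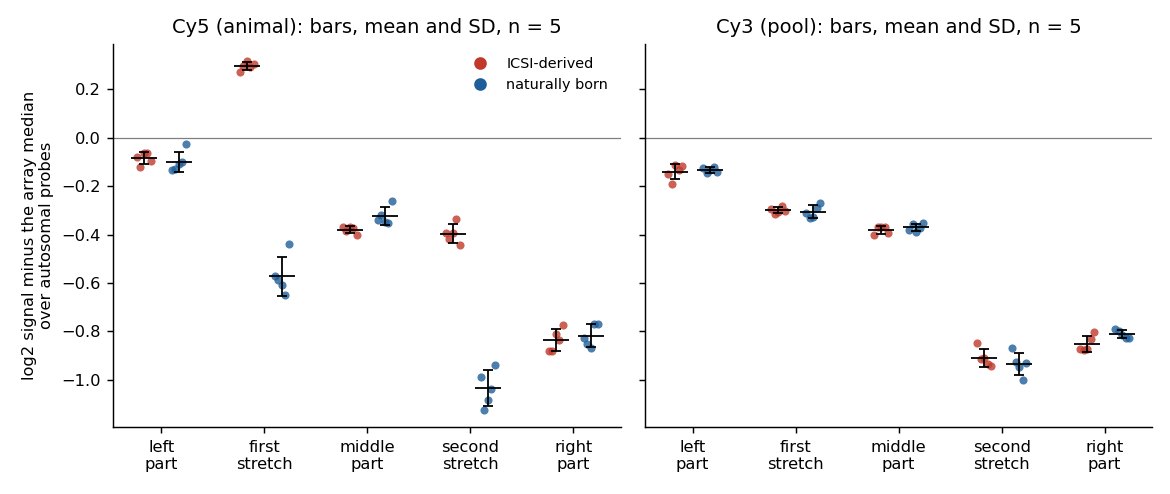
Log2 signal of the animal (Cy5, left panel) and of the pool (Cy3, right panel), minus each array's median over autosomal probes, averaged over the members of each run; points are arrays, bars are group means and SD (n = 5). In the first stretch the animal channel gives 0.30 and -0.57 in the 2 groups, while the pool channel gives -0.30 and -0.31.

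The levels were set beside those that whole copy numbers would give against a pool of 3 strains. If all 3 strains carry the sequence on both chromosomes, the pool has 2 copies on average, and an animal with 2 copies reads 0 and an animal with 1 copy -1. If 1 of the 3 strains lacks the sequence, the pool has 1.33 copies, and 2 copies read 0.58 and 1 copy -0.42. If 2 strains lack it, the pool has 0.667 copies, and 1 copy reads 0.58 and 2 copies 1.58. The response of the arrays was taken from chromosome X, where females against males would give 1. It gave 0.76 over the 10 animals and 0.85 without the array labelled naturally born replicate 3. Scaled by these responses, the level for 2 copies with 1 strain lacking becomes 0.44 or 0.50, and that for 1 copy becomes -0.31 or -0.35.

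Of the 6 combinations, the levels of the first stretch were nearest to those of a pool in which 1 strain lacks the sequence. The ICSI-derived mean of 0.60 lay 0.01 above the level for 2 copies on the plain scale, 0.15 above it with the response of 0.76 and 0.10 above it with that of 0.85. The naturally born mean of -0.27 lay 0.15, 0.05 and 0.09 above the level for 1 copy on the same 3 scales. The ICSI-derived level is equally near to 1 copy in a pool with 2 strains lacking, since both give the same ratio, so the ICSI-derived animals alone do not set the copy number. Levels for more than 2 copies in an animal were not compared in this stretch. No single response brought both groups onto their levels, because the ICSI-derived mean was closest with none and the naturally born mean was closest with the stronger scaling.

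The second stretch gave a different picture for the naturally born animals. The ICSI-derived mean of 0.51 was 0.07 below the level for 2 copies with 1 strain lacking on the plain scale, 0.07 above it with the response of 0.76 and 0.02 above it with that of 0.85. The naturally born mean of -0.10 was nearest to 0, which stands for 2 copies in a pool that lacks none, at a distance of 0.10. It lay 0.32, 0.21 and 0.25 above the level for 1 copy with 1 strain lacking. Without the member that starts at 41367908, left out after its values were seen, the naturally born mean was -0.15. That value lies between 0 and the 1-copy level of -0.31 at the response of 0.76, so the distances depend on this member. The combinations compared gave an animal only 1 or 2 copies. Among them, the groups' nearest combinations in this stretch assign the same pool different contents. None of them with a common pool was nearest for both groups. Levels for more than 2 copies in an animal were not compared, so a common pool with such animals was not tested. No strain was hybridised alone and whole copy numbers were not measured by another method, so these distances are values and not a test.

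**Figure D4:**
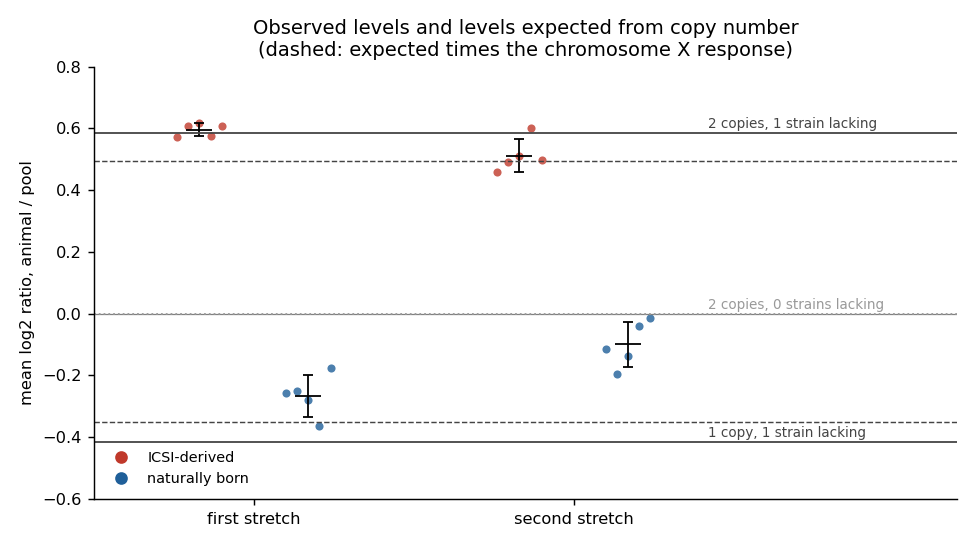
Mean log2 ratio of each animal in the first and second stretch (points; bars, group mean and SD, n = 5) beside the levels for whole copy numbers against a pool of 3 strains (solid lines) and the same levels times the chromosome X response without naturally born replicate 3 (dashed lines). The first stretch lies near the lines for 2 copies and 1 copy with 1 strain lacking, at 0.60 and -0.27, while the naturally born animals in the second stretch lie between 0 and the 1-copy line, at -0.10.

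Sex was not used to choose the interval and could be tested. No member was called by sex in the limma fit, where 6 of 161460 probes (0.00372%) were, and 1 of the 69 members had an unadjusted p under 0.05, against 4705 of all probes. No member was called for an interaction of group and sex either, where 0 of all probes (0.0%) were called and 6131 had an unadjusted p under 0.05, among them 5 members, and the smallest adjusted p of a member by limma was 0.271. In the first stretch females and males differed by -0.01 (exact permutation test within groups, two-sided, p = 0.81, adjusted p = 0.945 over 7 means compared). In the second stretch the 4 females averaged 0.26 and the 6 males 0.17, a difference of 0.09 that did not pass the correction (exact permutation test, two-sided, p = 0.02, adjusted p = 0.14). Sex fell unevenly on the slides: slide 1 held 4 males, slide 2 held 2 animals of each sex and slide 3 held 2 females, and the permutation did not account for slide. Within slide 2, an alternative added after seeing the data with 1 animal per group and sex and no test, the difference was 0.09 in the second stretch and -0.06 in the first stretch. Over all slides the second stretch gave 0.06 within the ICSI-derived group and 0.12 within the naturally born group. With the array labelled naturally born replicate 3 left out, the second stretch gave 0.09 (exact permutation test, unadjusted p = 0.0333), and in the first stretch -0.01 (p = 0.783). The sex difference was 0.02 for the whole interval (exact permutation test, p = 0.11, adjusted p = 0.193), and the smallest p that this design allows is 0.01.

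The autosomal regions whose pattern over the 10 animals was most like the first stretch were sought among 1297 windows of 5 probes. The 3 most alike had a Pearson r of 0.94, 0.87 and 0.85 with the first stretch over the 10 animals, which share the 2 groups and were ranked on this likeness, so the values are a description. The first, on chromosome 5 at 130977170 to 131025010, read 0.04 ± 0.07 and -0.44 ± 0.09 (SD, n = 5 each), but rested on a single probe: 1 of its 5 probes had a group difference of 2.53, and the median of the 5 was 0.03. The second, on chromosome 4 at 113286238 to 113364933, read 0.22 ± 0.18 and -0.22 ± 0.07, and none of its 5 probes separated the groups completely. The third, on chromosome 9 at 39198693 to 39239842, read 0.35 ± 0.34 and -0.35 ± 0.03. Its ICSI-derived animals did not lie together, with 0.43, 0.58, -0.24, 0.46 and 0.54, while those of the first stretch lay within 0.05 of each other. The first stretch averages 10 probes and each window 5, which alone makes its spread smaller.

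**Figure D5:**
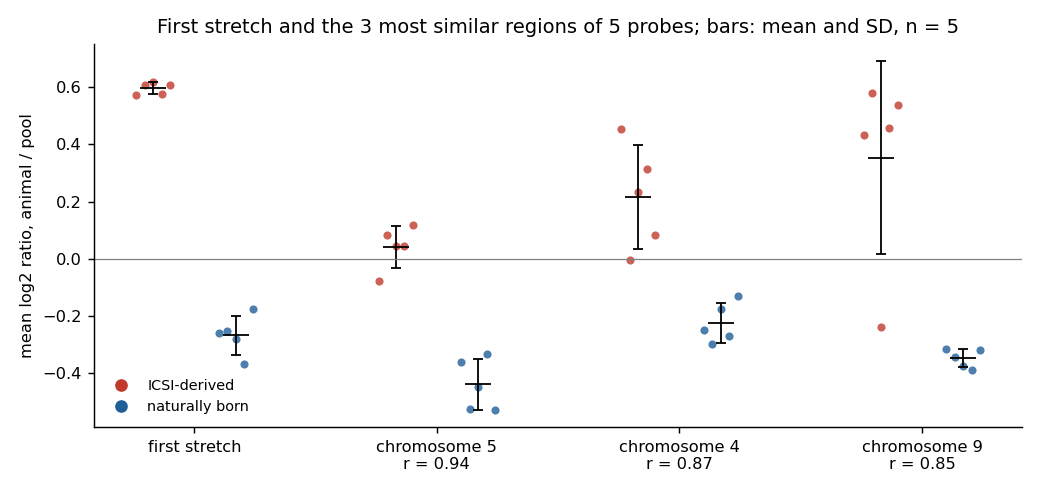
Mean log2 ratio of each animal (points; bars, group mean and SD, n = 5) in the first stretch and in the 3 windows of 5 autosomal probes with the highest Pearson r to it over the 10 animals. The ICSI-derived animals lie between 0.57 and 0.62 in the first stretch and spread more widely in the other regions, down to -0.24 in replicate 3 on chromosome 9. The first stretch averages 10 probes and each window 5, so the spreads are not like for like.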

How the data were processed

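The deposited scanner files of 10 two-colour Agilent arrays hold processed intensities that Feature Extraction 10.7.3.1 background-subtracted and dye-normalised, per the file headers. The deposited log10 ratios of the authors' value table equal those in the scanner files and were used as an alternative. Partek 6.5 is named in the submitters' processing notes. Build mm9 stands in 6 headers, and the other 4 arrays carry the same coordinates.

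Control spots were left out, replicate spots of a probe were averaged, and the autosomal median (161460 probes) of an array was subtracted from its log2 ratios of Cy5 over Cy3, without loess. All autosomal probes were fitted in R 4.3.3 by limma 3.58.1 (terms for group and sex, lmFit and eBayes, two-sided, Benjamini-Hochberg at 0.05). The fit was tested on simulated data. The members were segmented jointly over the 10 animals by optimal partitioning (penalty factor 3, at least 3 members; 1.5 and 6 as alternatives). Sex was permuted within groups. Python 3.11.15, numpy 2.4.6, pandas 2.3.3 and Biopython 1.88 served the other steps. The members, the stretches and the genes listed were chosen with earlier results of these data known. Named members are the 5 with the largest positive and the 3 with the largest negative difference and those at the limits of the interval, and others are named as exceptions or for their position or level. Windows compared with the first stretch had to range over at least 0.5 between animals and lie 1 Mb apart. Alternatives were other centring, normexp on median intensities (offset 50), the value table, loess, leaving out dim or flagged spots, slide or replicate number as a block, array weights, no sex term, within slides, and leaving out each animal. The replicates are separate animals.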

Additional observations from a re-analysis of the deposited data

Results flagged for a closer look

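A single animal stood far from the other 4 of its group in 4 of 30 sets of values examined (Dixon's criterion, n = 5). For independent sets chance alone gives about 1 in 20. The sets overlap, since the whole interval holds the left part and the single members, so the count cannot be read as an excess. Over the whole interval naturally born replicate 5 had a mean log2 ratio of 0.0368, against -0.0496 to -0.0336 in the other naturally born animals. Over the 17 members of the left part the same animal had 0.109, against -0.0051 to 0.0263. At the member that starts at 41090950 it had -0.171, against -0.371 to -0.344. Chromosome 6 outside the interval had 0.0695 in this animal and at most 0.0107 in the others, and its part in these values was not tested. At the member that starts at 41464736 naturally born replicate 2 had -0.101, against 0.0561 to 0.0683.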

How the results depend on the processing

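The first stretch was found on these same values, so the range over 21 alternatives only describes its group difference of 0.86. That difference went from 0.782 within slide 3, which holds 1 animal of each group, to 0.938 with normexp. It was 0.916 as a median over members and 0.921 within slide 2. In the second stretch the range over 21 alternatives was 0.454 with normexp to 0.651, with 0.510 within slide 3. Over the whole interval it was 0.0912 as a median over members and 0.103 within slide 3. The segmentation gave 1 run with a penalty factor of 6 and 5 with 1.5, so the second stretch rests on the lower penalty. Of the members, 15 were called higher in the main fit, 2 within slide 1 and 8 within slide 2. The slides were each fitted on 4 arrays, as an alternative added after seeing the data. Of all 161460 probes 25 were called higher in the main fit, 20 within slide 1 and 53 within slide 2. The member called lower was lost (0 called) with normexp, with the replicate block and within slides 1 and 2. It was also lost without ICSI-derived replicate 1, 2 or 4 or naturally born replicate 1, 3 or 4. Leaving out each animal thus gave 0 to 1. Over all probes 7 were called lower in the main fit, 6 with normexp and 4 with the replicate block. Within slide 1 that number was 17 and within slide 2 it was 27. Without each of those 6 animals it was 4 to 10.

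With the replicate block 13 members were called higher and 0 lower, where 21 and 4 of all 161460 probes were. Same-numbered animals did not deviate together (correlations from -0.28 to 0.15, no animal closest to its own number), so the samples were not treated as pairs, although each number shares a slide and a sex in both groups.

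For sex, the whole-interval difference was 0.0346 with normexp (exact permutation p = 0.01, not adjusted). Centred on all probes it was 0.0053 (exact permutation p = 0.88). With normexp 10975 of all probes had an unadjusted limma p under 0.05 for sex, against 4705 in the main fit. The whole-interval difference was 0.0060 to 0.0412 when each animal was left out. It passed 0.05 without ICSI-derived replicate 3 (0.0259, exact permutation p = 0.0333). The second-stretch difference was 0.0780 with normexp (exact permutation p = 0.05) and 0.065 to 0.117 when each animal was left out, and it was no longer under 0.05 before adjustment without ICSI-derived replicates 1, 2 and 4 or naturally born replicates 4 and 5.

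Within slide 2, the only slide with both sexes, the sex difference was 0.0049 for the whole interval, -0.0634 for the first stretch and 0.0924 for the second stretch (2 animals of each sex, no test).

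Distances from the level for 2 copies with 1 strain lacking, 0.154 for ICSI-derived animals in the first stretch with the response over all animals, were 0.101 with the response without naturally born replicate 3 and 0.0113 with no correction. In the second stretch 0.0691 became 0.0161 and -0.0733. The naturally born distances from the level for 1 copy were 0.149 and 0.315 with no correction, from 0.0478 and 0.214. These shifts come from the construction of the scales alone, since the observed means were the same on each scale. Counts of members called by sex and by interaction were 0 under every alternative run. Over all probes at most 1 was called higher and 19 lower by sex, and at most 1 in either direction for the interaction. With the replicate block sex could not be estimated, since each number holds 1 sex. The spacing of the members limits the ends of the stretches to about 10.2 kb.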
